A study of Mus musculus with 2 samples.

Results

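The mir-183 cluster is a set of 3 microRNA (miRNA) hairpin genes, Mir183, Mir96 and Mir182, that lie side by side on mouse chromosome 6. They were taken by gene identifier and GENCODE symbol, a rule that uses no measured value. Earlier results of these data were known, however, when the members and the marker lists below were chosen. The members are 3 of the 1973 miRNA genes listed in the deposited tables, and 3 of the 411 genes detected, meaning that each library held at least 10 of their reads. The libraries came from midbrain of healthy B6NCrl mouse embryos at embryonic day 16.5, in 1 group with no treatment named and no contrast between conditions. Each of the 2 biological replicates was a pool of male and female embryos. The pool of replicate 2 held 37 embryos, and the size of the other pool is not given in the sources used here. Small RNA inserts below 30 nt were sequenced, and each table gives reads per hairpin gene, so reads of the 5p and 3p arms of a hairpin cannot be told apart.

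A miRNA is cut from a hairpin in a longer primary transcript and guides the silencing complex to mRNAs that pair with its seed, the bases near its 5′ end. The hairpins of the mir-183 cluster are conserved among animals and are processed from a common primary transcript. They are known from sensory cells: photoreceptors of the retina, hair cells of the inner ear, olfactory neurons and neurons of the sensory ganglia. Base changes in the seed of miR-96 cause progressive hearing loss in mice and humans. In bulk tissue such as a dissected midbrain, a low level can come from few cells or from little RNA per cell, and these cannot be told apart.

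The mature sequences are shown because the seeds set which miRNAs of the cluster could share targets. They were read from RefSeq (build GRCm38.p6, the build of mm10), in which all 3 genes were matched. Each is written 5′ to 3′ with the seed, bases 2 to 8, in capitals. The 5p arms are followed by the 5p arm of miR-1271, the 1 other mature mouse miRNA in that table with the seed of miR-96-5p.
miR-183-5p: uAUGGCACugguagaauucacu
miR-96-5p: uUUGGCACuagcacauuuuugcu
miR-182-5p: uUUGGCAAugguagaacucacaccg
miR-1271-5p: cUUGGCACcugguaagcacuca

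No pair among the 3 members had the same seed. Bases 2 to 7 were identical in miR-96-5p and miR-182-5p. Aligned at base 1 and counted from the 5′ end, these arms differed within the seed by the single substitution C8A, with the base of miR-96-5p first. miR-183-5p differed from miR-96-5p within the seed by A2U and from miR-182-5p by A2U and C8A, with the base of miR-183-5p first. Over the whole arm, seed included, miR-183-5p and miR-182-5p were identical at 18 of 22 bases (81.8%), with U17C and U22A as the other differences. miR-183-5p and miR-96-5p were identical at 13 of 22 bases (59.1%), and miR-96-5p and miR-182-5p at 12 of 23 (52.2%).

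The hairpins are shown with both mature arms in capitals, because the tables count reads over this whole stretch. Mir183 (ENSMUSG00000065619.2) is at chr6:30169668-30169737, Mir96 (ENSMUSG00000065586.1) at chr6:30169446-30169551 and Mir182 (ENSMUSG00000076361.1) at chr6:30165918-30165992, all on the minus strand of mm10.
Mir183: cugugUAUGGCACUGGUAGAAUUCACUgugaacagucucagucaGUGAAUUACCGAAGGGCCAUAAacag
Mir96: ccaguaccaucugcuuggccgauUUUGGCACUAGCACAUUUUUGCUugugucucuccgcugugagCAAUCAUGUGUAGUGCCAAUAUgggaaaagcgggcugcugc
Mir182: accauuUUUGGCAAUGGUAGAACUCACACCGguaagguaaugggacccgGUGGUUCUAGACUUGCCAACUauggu

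In the direction of transcription Mir183 comes first, Mir96 follows after 116 bases and Mir182 after another 3453 bases. The interval from the first to the last hairpin spans 3820 bases. GENCODE M21 annotates no other gene on either strand within it, so the hairpins are neither exonic nor intronic to an annotated host. The nearest protein-coding genes are Nrf1, which ends 12460 bases away on the plus strand, and Ube2h on the minus strand, whose nearest edge, its 3′ end, lies 41552 bases away at the higher coordinate. Reads of the members can be placed uniquely among annotated hairpins. The longest run of bases that a member shares with any of 1004 other RefSeq hairpins, on either strand, was 11 for Mir183, 10 for Mir96 and 10 for Mir182. With another member it was at most 8. None of the 6 mature arms was found in a GENCODE M21 transcript other than its own hairpin. Other places in the genome were not searched.

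**Figure D1:**
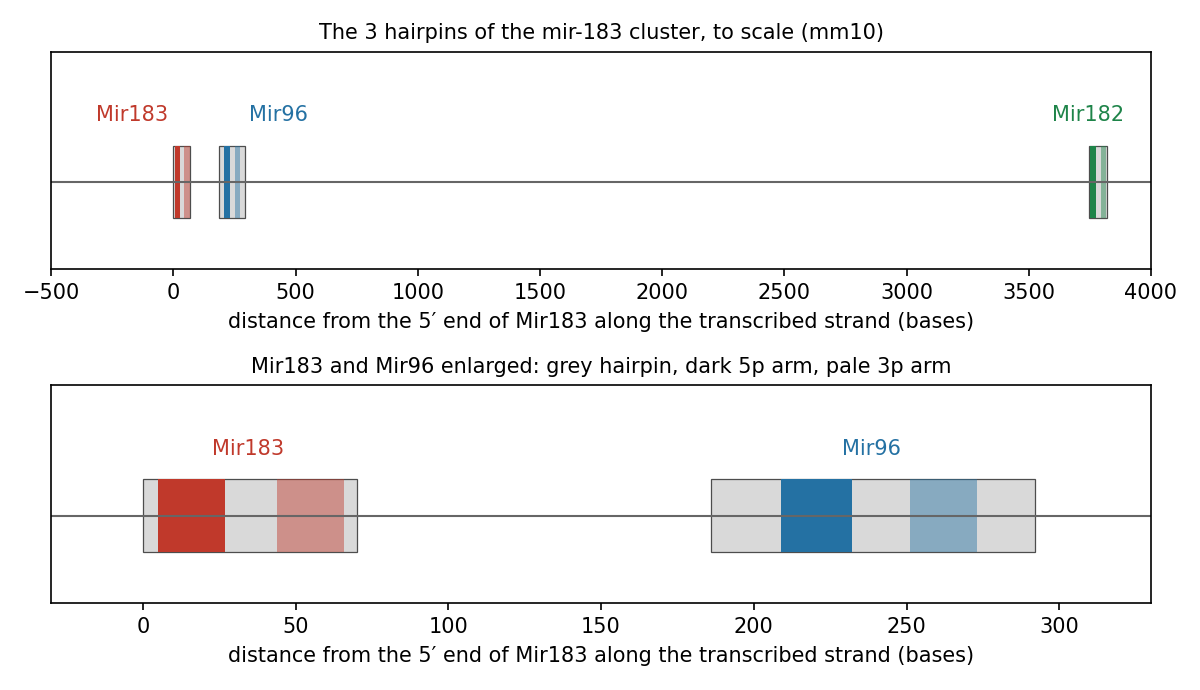
Map of the mir-183 cluster, drawn to scale, with distance in bases from the 5′ end of Mir183 along the transcribed strand on the horizontal axis. Grey boxes are hairpins, dark stretches their 5p arms and pale stretches their 3p arms; Mir183 and Mir96 are 116 bases apart and Mir182 lies 3453 bases further on.

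All 3 hairpins were detected in both libraries at a middle level. Levels are given as CPM, the sense-strand reads of a gene divided by all sense-strand miRNA reads and scaled to 1000000. There were 6151299 such reads in replicate 1 and 5312642 in replicate 2. A mature miRNA is read whole, so CPM are not divided by hairpin length. Mir183 had 3141 reads (511 CPM) in replicate 1 and 3608 reads (679 CPM) in replicate 2, a mean of 595 ± 119 CPM (SD, n = 2). Mir182 had 3068 reads (499 CPM) and 3114 reads (586 CPM), a mean of 542 ± 61.8 CPM. Mir96, whose miRNA is the one of the cluster tied to hearing loss by seed changes, had 1098 reads (178 CPM) and 1159 reads (218 CPM), a mean of 198 ± 28.0 CPM. Replicate 2 was the higher library for each of the 3.

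The order was Mir183, Mir182, Mir96 in both libraries. Mir183 and Mir182 did not differ beyond their spread. Compared within each library, Mir183 had 1.09 ± 0.095 times the reads of Mir182 (SD, n = 2), which differed from parity by less than that SD. The gap between their means was also smaller than the SD of either gene, and their library values overlapped. Both genes were higher in replicate 2, so the SDs of their levels hold a shift that they share. Within replicate 2 alone, Mir183 was the higher by more than counting error. Mir96 lay below both in each library with no overlap. Divided by hairpin length, the order stayed the same, at 849.8 ± 170.2 CPM per 100 bases for Mir183, 723 ± 82.4 for Mir182 and 187 ± 26.5 for Mir96. The SD was 20.0% of the mean for Mir183, 14.1% for Mir96 and 11.4% for Mir182. Counting error was smaller. The exact 95% Poisson interval of Mir183 ran from 493 to 529 CPM in replicate 1 and from 657 to 702 in replicate 2. That of Mir182 ran from 481 to 517 and from 566 to 607, and that of Mir96 from 168 to 189 and from 206 to 231. For none of the 3 did the intervals of the libraries overlap. Such intervals cover counting error only, since PCR copies are not independent molecules.

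**Figure D2:**
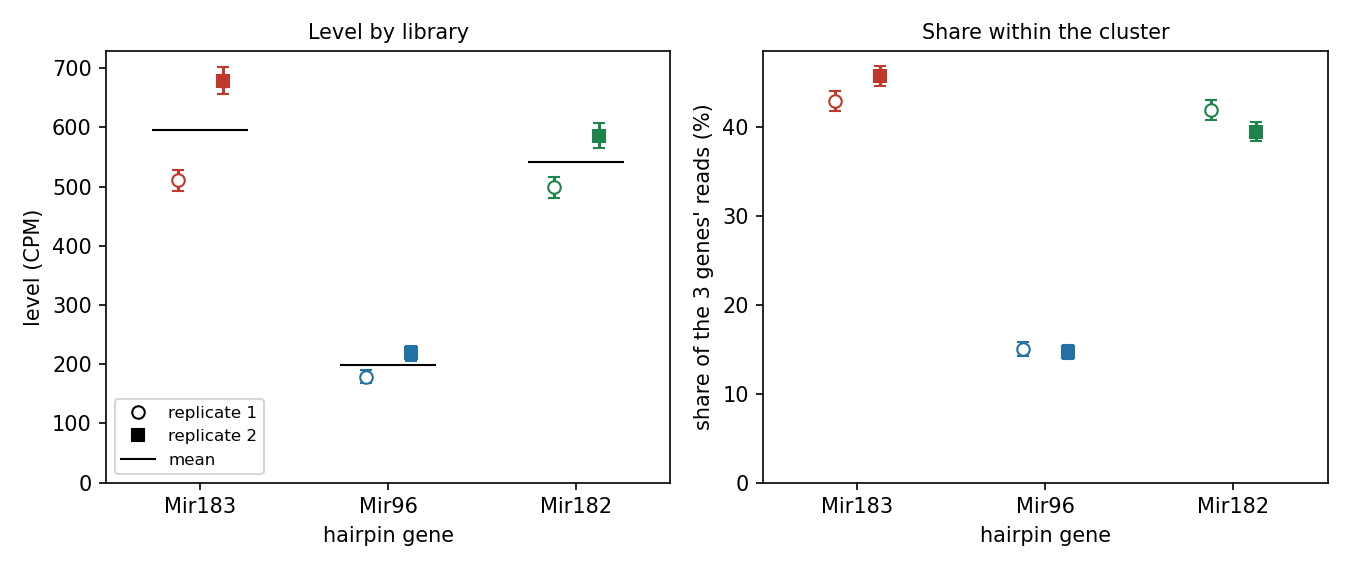
Left, level in CPM of each hairpin gene in replicate 1 (open circle) and replicate 2 (filled square) with exact 95% Poisson intervals, and the mean as a line. Right, share of each gene in the reads of the 3 genes with 95% Wilson intervals; Mir183 and Mir182 stand near each other and Mir96 lies far below both.

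Among the 411 detected genes, Mir183 ranked 120, Mir182 ranked 125 and Mir96 ranked 182 by mean level. They stood at 5.51, 5.03 and 1.84 times the median of detected genes (107.9 CPM). Their ranks moved little between the libraries, from 126 to 115 for Mir183, from 128 to 121 for Mir182 and from 187 to 170 for Mir96. The next gene above Mir183 was Mir350 at 609.5 ± 0.59 CPM and the next below was Mir203 at 586 ± 57.4 CPM. Around Mir182 stood Mir501 (554 ± 2.24 CPM) and Mir195a (535 ± 10.04 CPM), and around Mir96 stood Mir148a (201 ± 14.0 CPM) and Mir542 (196 ± 22.2 CPM). Each of these 6 neighbours lay within 1 SD of the member it adjoins, so the exact ranks are not resolved by 2 libraries. Reads that mapped to several places, 35.3% of all reads in replicate 1 and 36.5% in replicate 2, were counted to no gene. Genes with near-identical copies can thus stand too low. Ranks, folds over the median and shares of miRNA reads therefore hold only among the reads counted to a gene.

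**Figure D3:**
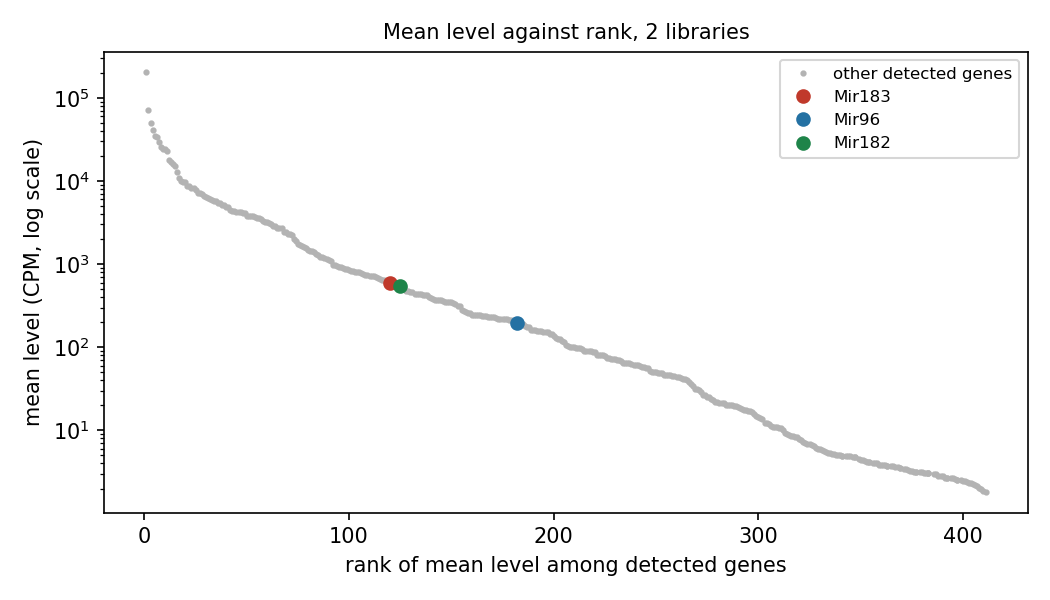
Mean level in CPM on a log axis against rank for the 411 detected genes, with the 3 members coloured. Mir183 and Mir182 sit next to each other at ranks 120 and 125, and Mir96 at rank 182.

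Together the 3 hairpins held 7307 reads, or 0.119% of sense-strand miRNA reads, in replicate 1, with a 95% Wilson interval from 0.116 to 0.122%. In replicate 2 they held 7881 reads, or 0.148%, with an interval from 0.145 to 0.152%. The summed level was 1336 ± 209 CPM. Within this sum, Mir183 made up 43.0% in replicate 1 (interval 41.9 to 44.1) and 45.8% in replicate 2 (44.7 to 46.9). Mir182 made up 42.0% (40.9 to 43.1) and 39.5% (38.4 to 40.6). Mir96 made up 15.0% (14.2 to 15.9) and 14.7% (13.9 to 15.5). The intervals of Mir96 overlapped, while the share of Mir183 was higher and that of Mir182 lower in replicate 2, with intervals that did not overlap. Mir183 had 1.02 times the reads of Mir182 in replicate 1 and 1.16 times in replicate 2. Mir182 had 2.79 and 2.69 times the reads of Mir96.

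Grouped by bases 2 to 7, which miR-96-5p and miR-182-5p have in common, Mir96 and Mir182 summed to 677 and 804 CPM, a mean of 741 ± 89.8 CPM. This sum takes all reads of the hairpins, whichever arm they came from. Gm24195 on chromosome 13 holds miR-1271-5p, which has the whole seed of miR-96-5p. It had 1 read in replicate 1 and 0 in replicate 2, where a count of 0 allows up to 3 reads.

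The 3 members were higher in replicate 2 than in replicate 1. With 1 group this compares 2 libraries from separate pools and not 2 conditions. The test was a two-sided exact binomial test of the reads with Benjamini-Hochberg adjustment over all 411 detected genes. A ratio sets replicate 2 over replicate 1 on the log2 scale, after 0.5 was added to both counts. Mir183 had a log2 ratio of 0.41 (1.33-fold, exact 95% interval 1.27 to 1.40, adjusted p = 1.0e-30 by the exact binomial test). Mir96 had a log2 ratio of 0.29 (1.22-fold, 1.12 to 1.33, adjusted p = 7.1e-06 by the exact test). Mir182 had a log2 ratio of 0.23 (1.18-fold, 1.12 to 1.24, adjusted p = 1.0e-09 by the exact test). The intervals of Mir183 and Mir182 did not overlap, and that of Mir96 overlapped both.

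All 3 members passed this test in the direction of replicate 2, as did 18.2% of detected genes. In the direction of replicate 1, 29.2% passed, and 47.4% in either direction. The test covers counting error only. At a biological coefficient of variation (BCV) fixed at 0.2 in edgeR's exact test, which allows for spread between pools, 0 of the 3 passed, with an adjusted p of 1 for each. The unadjusted p was 0.319 for Mir183, 0.487 for Mir96 and 0.573 for Mir182, and 1.46% of detected genes passed after adjustment. At that spread, gaps of 1.18-fold to 1.33-fold were not resolved by 2 libraries.

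The median log2 ratio of the 3 members was 0.29, against -0.06 for all detected genes. Of the detected genes, 165 (40.1%) had a ratio above 0. The ratio of Mir183 was above that of 93.2% of detected genes, that of Mir96 of 85.9% and that of Mir182 of 83.2%. Among the 119 genes between 100 and 1000 CPM, where counting error is like that of the members, 33 (27.7%) passed the binomial test in the direction of replicate 2, and 3 had a ratio as high as that of Mir183. The 3 were Mir183 itself, the erythroid Mir451a at 122 and 179.9 CPM (0.56) and Mir346 at 197 and 275 CPM (0.48). Mir346 was named after its value was seen. In the same band 14 genes had a ratio as high as that of Mir96 and 18 as high as that of Mir182.

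**Figure D4:**
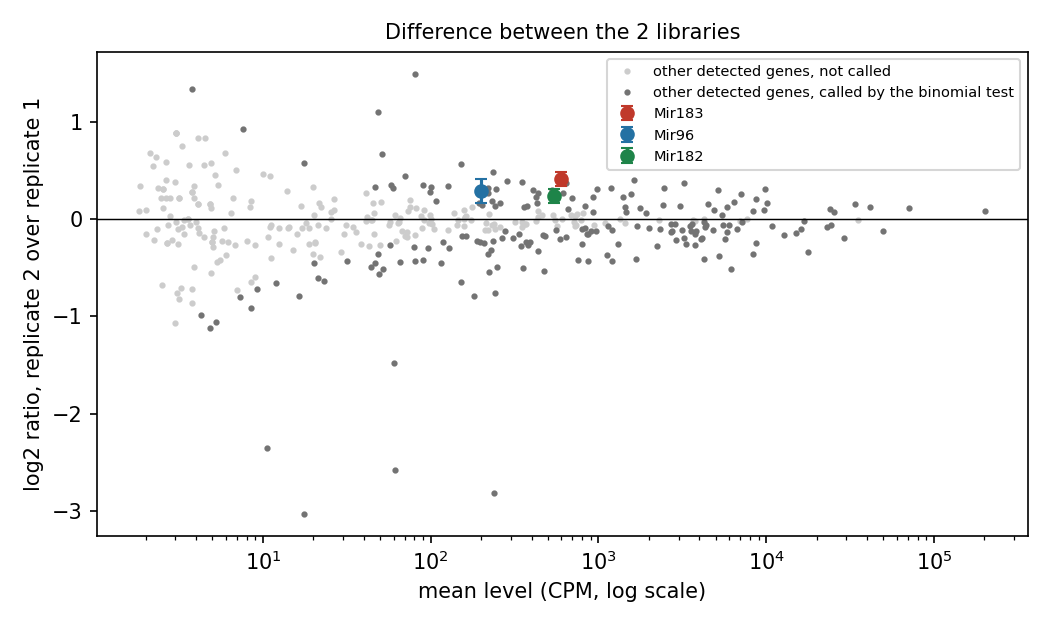
Log2 ratio of replicate 2 over replicate 1 against mean CPM (log axis) for the 411 detected genes, dark where the exact binomial test passed at an adjusted p of 0.05. The 3 coloured members, with exact 95% intervals, lie above 0 at 0.41, 0.29 and 0.23, inside the spread of genes of like level. Mir183 lies near the upper edge of that spread.

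Likeness to each member was measured as the distance between genes in the plane of log2(CPM + 1) of the libraries, over 2 libraries only. The nearest genes to Mir183 were Mir138-2 (distance 0.13, 558 and 674 CPM), Mirlet7c-2 (0.17, 561 and 727 CPM) and its own cluster member Mir182 (0.21). The nearest to Mir182 were Mir383 (0.08, 473 and 583 CPM), Mir195a (0.14, 528 and 542 CPM) and Mir501 (0.18, 556 and 553 CPM). The nearest to Mir96 were Mir29c (0.10, 182 and 204 CPM), Mir148a (0.11, 191 and 211 CPM) and Mirlet7a-2 (0.20, 198 and 238 CPM). With 2 points a gene, this likeness says only that the levels lay close. Mirlet7c-2 and Mirlet7a-2 are copies of let-7 miRNAs, and Mir138-2 is a copy of mir-138, as is Mir138-1 on another chromosome. Reads of such copies can be lost when they align to several places.

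Other clusters were set beside the mir-183 cluster to show how evenly hairpins of neighbouring genes were counted. Detected genes on 1 strand with neighbours within 10 kb formed 47 clusters, of which 7 had 3 hairpins. By summed level the mir-183 cluster ranked 26. Its highest member stood 3.0-fold above its lowest, against a median of 20.0-fold over the 47 clusters, and 13 clusters including itself were that even. Such a fold, like the span of ratios below, can grow with the number of hairpins, which ran from 2 to 30. Over the 7 clusters of 3 hairpins the fold ran from 1.87 to 142. In other clusters, hairpins with near-identical copies elsewhere can lose reads, and no such copy of a member was found among the RefSeq hairpins. Among the 19 clusters whose lowest member reached 100 CPM, the median was 5.16-fold and 7 clusters including this one were as even.

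Between the libraries the log2 ratios of the 3 members spanned 0.18, from 0.23 to 0.41. The median span was 0.24 over all 47 clusters and 0.18 over the 19 well-counted ones, of which the mir-183 cluster was itself the middle. All hairpins had ratios above 0 in 9 of the 47 clusters, the mir-183 cluster among them, and below 0 in 16. Most clusters held few hairpins and 40.1% of all detected genes had a ratio above 0, so nothing is read from these counts.

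**Figure D5:**
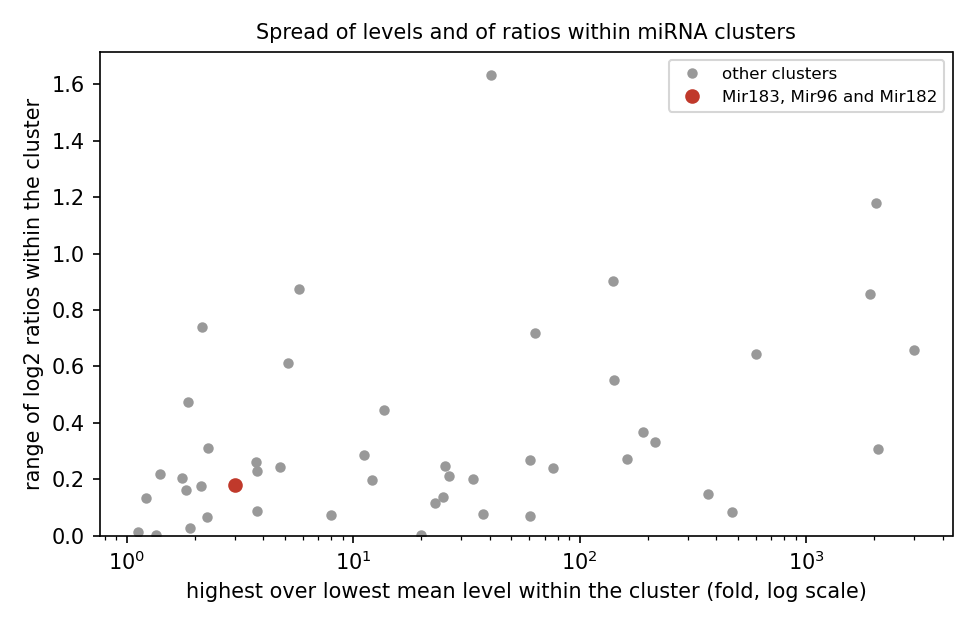
Range of log2 ratios within each of 47 clusters of detected miRNA genes against the highest over the lowest mean level in the cluster (log axis). The mir-183 cluster, in red, stands at 3.0-fold and a range of 0.18, toward the lower left.

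The table lists 5 other miRNA genes within 1 Mb of the cluster. Mir335 lies 571562 bases upstream on the plus strand and stood at 49755 ± 3034 CPM, with a log2 ratio of -0.12 (adjusted p = 1.4e-229 by the exact binomial test). Mir29a, 892923 bases upstream on the minus strand, stood at 197 and 245 CPM, with a log2 ratio of 0.32 (adjusted p = 1.3e-07 by the exact binomial test). Its neighbour Mir29b-1 had 9 and 21 reads and was below the minimum for a test. Mir29b-1 is a numbered copy, so its reads can be left out when they align to several places. Downstream, Gm26220 had 2 and 4 reads, and Gm23049 had 0 reads in both libraries, which allows up to 3 reads in each. Genes near the cluster thus ranged from far above it to 0 reads, and Mir335 was higher in replicate 1 while Mir29a was higher in replicate 2.

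Marker lists place the cluster among miRNAs of the labelled tissue and of tissues that a dissection could bring along. Their counts of calls stand beside 18.2% of all detected genes called higher in replicate 2 and 29.2% in replicate 1, and differences between lists were not tested. At a BCV of 0.2, 5 epithelial genes passed edgeR's exact test and 0 of the other lists. Of the 13 brain and neuron genes listed, 12 were detected, led by Mir149 (25498 ± 892 CPM) and Mir137 (15108 ± 1072 CPM), and 6 were higher in replicate 2 and 2 in replicate 1 by the exact binomial test. Mir9-3, a copy of a miRNA of neural progenitors, stood at 363 and 447 CPM (log2 ratio 0.30). The defining neuronal mir-124 copies were near 0, Mir124a-1 at 5.36 and 4.71 CPM, and reads of such near-identical copies can be left out. Among miRNAs of sensory organs and choroid plexus, Mir204, of choroid plexus and pigment epithelium, stood at 2444 and 2016 CPM (log2 ratio -0.28) and Mir211 at 16.1 and 17.7 CPM. Mir184, of lens and cornea, stood at 6.67 and 3.01 CPM. Of these 3, 0 were higher in replicate 2 and 2 in replicate 1 by the exact binomial test. Mir9-3, Mir124a-1 and Mir184 were named after their values were seen.

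All 7 epithelial genes, which include the mir-200 family of olfactory and other epithelia, were detected and higher in replicate 1. Their summed level was 1327 CPM in replicate 1 and 689 CPM in replicate 2, led by Mir203 (627 and 546 CPM) and Mir429 (419 and 59.5 CPM). The 6 genes other than Mir203 summed to 699.5 and 143 CPM, and the median log2 ratio of the list was -2.35. Those that passed at a BCV of 0.2 were Mir429, Mir200a, Mir200b, Mir200c and Mir141, all but Mir429 named after their values were seen, and 1 further gene of the 411 passed, Gm23935 (higher in replicate 2), also named after its value was seen. Of the 7 endocrine and pancreas genes, 5 were called higher in replicate 1 and 1 in replicate 2 by the exact binomial test. The list was led by Mir7b (3240 ± 313 CPM) and Mir7-1 (755 ± 154 CPM). Mir7-1 is a numbered copy, and reads of near-identical copies can be left out, so its place below Mir7b is not resolved. The name of that list does not give the source of the mir-7 reads, which may be midbrain cells, and this was not tested. The 4 blood genes summed to 410 and 487 CPM, and Mir451a and Mir150, the latter named after its value was seen, were higher in replicate 2. Mir223, the next highest gene of the blood list after Mir451a, stood at 135 and 140 CPM. Mir144, also named after its value was seen, went the other way at 74.3 and 65.7 CPM (log2 ratio -0.18) and was not called. In the Hox list Mir10a stood at 720 ± 12.5 CPM and Mir10b at 438 ± 18.3 CPM, with 0 of 4 detected genes higher in replicate 2 and 1 higher in replicate 1. Vessel genes were led by Mir126a (23939 ± 1233 CPM) and Mir143 (6033 ± 193 CPM), with 1 of 3 called in each direction. Muscle genes were led by Mir206 (18.0 ± 0.36 CPM) and Mir208b (15.9 ± 1.19 CPM), with 0 of 3 detected genes called. Mir133a-1, Mir133a-2 and Mir1a-1 were at 0 reads. As for mir-124, reads of numbered copies such as these can be left out when they align to several places, so 0 reads does not show absence. The part of these cells in the level of the cluster, or in its gap between the libraries, was not tested.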

How the data were processed

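The deposited values were raw read counts per miRNA gene, 1 table per library, on mm10 with GENCODE M4 per the file descriptions deposited beside them. The aligner and the counting program are not given in the sources used here. Of the 3 count columns the sense-strand one was used; sense and opposite-strand counts summed to the either-strand count for every gene. Rows without a gene were left out of library sizes. In replicates 1 and 2, 35.3% and 36.5% of all reads mapped to several places, 15.6% and 15.2% were unmapped and 3.99% and 4.14% fell in no gene. Symbols came from GENCODE M21 (1894 of 1973 genes matched).

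CPM used the summed sense counts. Genes with 10 or more reads in both libraries were compared by an exact binomial test (two-sided). Its p-values were adjusted by Benjamini-Hochberg over all genes detected, at 0.05. Alternatives were TMM factors and an exact test at a BCV of 0.2 (edgeR 4.0.16), DESeq2 1.42.0 size factors, other filters, either-strand counts, and each library alone. R 4.3.3, Python 3.11.15, scipy 1.17.1 and RNAfold 2.7.2 were used. Named were the members, the 3 genes nearest each in level, genes within 1 Mb, genes with a member's seed, and the 2 highest of each marker list. The members and lists were chosen with earlier results of these data known.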

Additional observations from a re-analysis of the deposited data

Results flagged for a closer look

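Reads on the strand opposite a hairpin entered no comparison above. At Mir183 there were 4 such reads in replicate 1 and 7 in replicate 2. They were 0.127% and 0.194% of the reads over Mir183 on either strand, against 2.56% and 2.49% over all genes listed. Mir182 had 3 such reads in each library and Mir96 had 0.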

How the results depend on the processing

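Of 53 alternative values, 45 kept their direction and side of the threshold or moved by less than the spread between libraries. Part of these 45 could not have come out otherwise. The level in 1 of 2 libraries always lies within their SD of the mean, and a filter changed only the adjusted p of a ratio. Log2 ratios ran from 0.41 to 0.47 for Mir183, 0.29 to 0.34 for Mir96 and 0.23 to 0.29 for Mir182, and each stayed past the threshold under TMM, RLE size factors, a total without Mir99a, either-strand counts, no filter and a minimum of 50 reads. At a BCV of 0.2 the ratios of 0.41, 0.29 and 0.23 had adjusted p = 1 by edgeR's exact test, and 6 genes were called in place of 195. Without Mir99a in the total, levels were 746 CPM for Mir183, 249 for Mir96 and 680 for Mir182, as the total is smaller. With neighbours within 3 kb Mir182 left the cluster, and the range of ratios of Mir183 and Mir96 was 0.12. No paired analysis was possible because there is 1 group. A ratio needs both libraries, so none was computed without either. Depth limits each member less than the spread between libraries does: the Poisson intervals of the libraries did not overlap.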

Other observations

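The 3p arm of Mir96 has a seed that 1 other mature miRNA in the RefSeq table carries, miR-3475-5p of Mir3475 on chromosome X. Mir3475 stood at 101 and 115 CPM, a mean of 108 ± 10.1 CPM, below Mir96 in both libraries. The sequences are shown with bases 2 to 8 in capitals.
miR-96-3p: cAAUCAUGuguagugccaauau
miR-3475-5p: aAAUCAUGuacccccacagagg

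No other mature miRNA in that table carries the seed of miR-183-5p, miR-183-3p, miR-182-5p or miR-182-3p. Folded with RNAfold, the annotated hairpins had predicted minimum free energies of -26.2 kcal/mol for Mir183 (70 bases), -47.9 for Mir96 (106 bases) and -29.9 for Mir182 (75 bases).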
